A study of Sus scrofa with 16 samples.

Results

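The genes described here make cholesterol or set how much of it the liver makes: HMGCS1, IDI1, FDPS, SQLE, CYP51, INSIG1 and SREBF2. They were sought by name among 8 cholesterol genes. By gene name, accession or annotated symbol, 12 probes matched 5 of the 8 genes, and by full gene name a further 4 probes matched INSIG1 and IDI1, out of 43603 probes on the array. No probe was matched to FDFT1. Liver total RNA of 16 freely fed pigs (Sus scrofa), each weighing 20 kg, was measured with 1 single-colour array per pig. The pigs came from 2 lines, 8 low-RFI (RFIneg) and 8 high-RFI (RFIpl) pigs, RFI being residual feed intake. The pigs are numbered 1 to 8 within each line, and pigs 1 to 4 and 5 to 8 of both lines carry sample numbers 1 to 8 and 55 to 62 of the study. The labels do not say what divides these runs of sample numbers.

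Cholesterol is built from acetyl-CoA in the mevalonate pathway, and the liver is one of its main sites. HMGCS1 condenses acetyl-CoA with acetoacetyl-CoA, IDI1 isomerises isopentenyl diphosphate, and FDPS makes farnesyl diphosphate, which FDFT1 joins into squalene. SQLE epoxidises squalene and CYP51 demethylates lanosterol. The pathway is switched on by the transcription factor encoded by SREBF2 when sterols in the endoplasmic reticulum are low, and INSIG1 holds that factor back when sterols are plentiful.

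The probes that carry the results are 60 bases long, and each of the following represents its gene because it had the highest mean level among that gene's tested probes. They are given 5′ to 3′.
HMGCS1: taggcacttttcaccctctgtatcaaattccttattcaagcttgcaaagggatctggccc
IDI1: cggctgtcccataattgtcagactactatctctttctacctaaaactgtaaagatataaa
FDPS: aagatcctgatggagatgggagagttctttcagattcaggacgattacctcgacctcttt
CYP51: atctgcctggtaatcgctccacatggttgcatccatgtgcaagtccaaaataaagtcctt
INSIG1: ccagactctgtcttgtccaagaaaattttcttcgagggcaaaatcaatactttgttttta
SREBF2: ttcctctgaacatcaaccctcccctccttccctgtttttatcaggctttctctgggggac
SQLE is shown with its second probe, because these share a run of 57 bases, in capitals, and so count as close to 1 measurement.
SQLE A_72_P444903: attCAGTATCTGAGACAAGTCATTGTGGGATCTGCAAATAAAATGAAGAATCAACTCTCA
SQLE A_72_P088686: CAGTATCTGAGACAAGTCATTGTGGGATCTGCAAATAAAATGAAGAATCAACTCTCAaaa
The other INSIG1 probes are shown because their values differ from those of the first.
INSIG1 A_72_P442208: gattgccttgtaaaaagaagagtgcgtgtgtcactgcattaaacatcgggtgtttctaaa
INSIG1 A_72_P186291: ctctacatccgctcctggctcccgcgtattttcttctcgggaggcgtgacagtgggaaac
CYP51 had 4 probes, FDPS, SQLE and INSIG1 3 each, and HMGCS1, IDI1 and SREBF2 1 each. The HMGCS1 probe is annotated to a predicted pig transcript whose symbol the RefSeq gene table gives as HMGCS1. INSIG1 and IDI1 carry no symbol in the files and were matched by their full gene name, after the annotations had been read. The INSIG1 probe that represents the gene, A_72_P308228, rests on a partial match to the bovine protein. The other INSIG1 probes are annotated to pig transcripts. The IDI1 probe rests on a partial match to the macaque protein.

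The arrays lay on 4 slides with 2 low-RFI and 2 high-RFI pigs each. A probe was tested when 8 or more of the 16 arrays showed it well above background, as 30099 probes did, all 16 of the cholesterol genes included. On each array 28579 to 34983 probes were well above background, on average 29930 in low-RFI and 30712 in high-RFI pigs (exact permutation p = 0.356). Signal at the 75th percentile was 320.0 to 508 intensity units and did not differ beyond its spread between the lines (exact permutation p = 0.317). The scanner's noise measure averaged 13.3 ± 1.39% in low-RFI and 14.6 ± 1.53% in high-RFI pigs (SD, n = 8 each; exact permutation p = 0.0968). The scanner software had marked 5 arrays for evaluation, all of them high-RFI pigs (1, 2, 3, 6 and 8). Hepatocyte markers were measured for 9 of 11 genes, and 0 differed between lines at an adjusted p under 0.05. The mean was higher in low-RFI pigs for all 9. Their median level was 8.45 across low-RFI pigs and 8.29 across high-RFI pigs. Markers of T and NK cells were higher in low-RFI pigs for 7 of 8 genes, and of Kupffer cells for 2 of 3. Lower were 5 of 6 stellate cell, 2 of 4 endothelial and 2 of 3 bile duct markers, beside 45.8% of all represented genes. Of these markers too, 0 passed the threshold. In whole liver, fewer cells of a type and less RNA per cell cannot be told apart.

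Levels below are log2 signal minus the 75th percentile of the array, and a change is the low-RFI mean minus the high-RFI mean on that log2 scale, with its standard error (SE). No line difference in these genes passed the test: 0 of 7 had an adjusted p under 0.05 in limma, adjusted over all tested probes by Benjamini-Hochberg, where 3 of all 30099 probes did (0.00997%). Unadjusted p was under 0.05 for 2 of the 7, HMGCS1 and IDI1, beside 5.45% of all tested probes. This count was 0 without low-RFI pig 1 or 3 or high-RFI pig 1, 6, 7 or 8, and 1 without low-RFI pig 6, 7 or 8 or high-RFI pig 2, 3 or 4, and 0 to 3 under 22 other settings. The lines overlapped for all 7, and 0.0432% of tested probes had lines that did not. The estimate was below 0 for 6 of 7 genes, with a median of −0.28, beside 45.8% of the 4063 genes represented on the array, whose median was 0.02. This count and median describe genes several of which covary between pigs. Without the 5 arrays marked for evaluation the count called was again 0, and without the genes matched by full name 4 of 5 estimates were below 0, with a median of −0.25.

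HMGCS1, an early enzyme of the pathway, ranged over −6.92, −4.66 and −3.72 (lowest, median and highest) in low-RFI pigs, against −5.04, −4.0 and −3.26 in high-RFI pigs. The lines overlapped, and the lowest values were those of low-RFI pigs 7 and 3. Its change was −0.98 ± 0.45 (SE), with an adjusted p of 0.911. The probe was dim, well above background in 5 of 8 low-RFI and 8 of 8 high-RFI pigs. With normexp background correction the change was −0.01. That correction added an offset of 50 intensity units, which shrinks log2 differences of dim probes, so its value cannot show whether the change holds. The main levels had no offset, so log2 values this close to background can spread widely. How far this widened the change was not tested.

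IDI1 had a lowest, median and highest level of −5.69, −4.77 and −3.95 in low-RFI pigs, against −5.06, −4.03 and −2.59 in high-RFI pigs. The highest values were those of high-RFI pigs 7, 6 and 8, and the lines overlapped. Its change was −0.80 ± 0.37 (SE), with an adjusted p of 0.912, and −0.03 with normexp correction. This probe too was dim, well above background in 6 pigs of each line, so the normexp offset shrinks its difference as well.

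FDPS reached 4.17, 5.56 and 6.70 (lowest, median, highest) in low-RFI pigs, against 5.08, 5.53 and 5.86 in high-RFI pigs. Both the lowest and the highest level of all 16 pigs were in low-RFI pigs, pig 3 and pig 8. The change was −0.14 ± 0.26 (SE), adjusted p 0.998, and the other FDPS probes gave −0.13 and −0.16. Without low-RFI pig 3 it was 0.04, and without low-RFI pig 8 it was −0.33. With the scanner's noise measure as a covariate it was −0.36 ± 0.27 (SE).

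SQLE levels were 3.21, 4.75 and 5.57 in low-RFI pigs, against 4.69, 4.87 and 5.22 in high-RFI pigs, again as lowest, median and highest. By the representing probe, pigs 3, 2 and 1 of the low-RFI line lay below every high-RFI pig, while low-RFI pig 5 lay above them all. The change of −0.41 ± 0.24 (SE) had an adjusted p of 0.967, and was −0.22 without low-RFI pig 3. The overlapping probe gave −0.40 and the remaining one, which shares no long run with it, −0.48. By that remaining probe, low-RFI pig 1 (0.88) lay above high-RFI pig 5 (0.36). Low-RFI pig 5 (1.84) there lay below high-RFI pig 6 (1.88).

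CYP51 was measured at 4.26, 5.59 and 6.29 in low-RFI pigs, against 5.32, 5.77 and 6.15 in high-RFI pigs. Low-RFI pig 3 stood lowest and low-RFI pig 8 highest. The change was −0.25 ± 0.22 (SE), adjusted p 0.979, with −0.08 to −0.28 from the other probes, and −0.07 without low-RFI pig 3. With the scanner's noise measure as a covariate it was −0.45 ± 0.22 (SE).

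Of the regulators, INSIG1 had levels of −1.12, 2.58 and 3.35 in low-RFI pigs, against 1.44, 2.04 and 4.27 in high-RFI pigs. Low-RFI pig 3 was far below all the others. The change was −0.28 ± 0.55 (SE), adjusted p 0.998, and it was 0.18 without that pig. Within single slides it lay at −1.86 on slide 3, which held low-RFI pig 3, and at 1.25 on slide 2. The other INSIG1 probes gave −0.13 and 0.08, and the last of these varied far less between pigs, with an SD of 0.16 in low-RFI and 0.26 in high-RFI pigs. By that last probe, low-RFI pig 3 (0.61) lay above high-RFI pigs 5 (0.57) and 3 (0.58).

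SREBF2 was the steadiest of the 7, at 3.81, 4.24 and 4.42 in low-RFI pigs, against 3.97, 4.13 and 4.51 in high-RFI pigs. Its change was 0.01 ± 0.11 (SE), adjusted p 0.998, and the sign of so small a value turned under several scalings (−0.05 with normexp, −0.02 with quantile normalisation, −0.01 with cyclic loess).

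**Figure D1:**
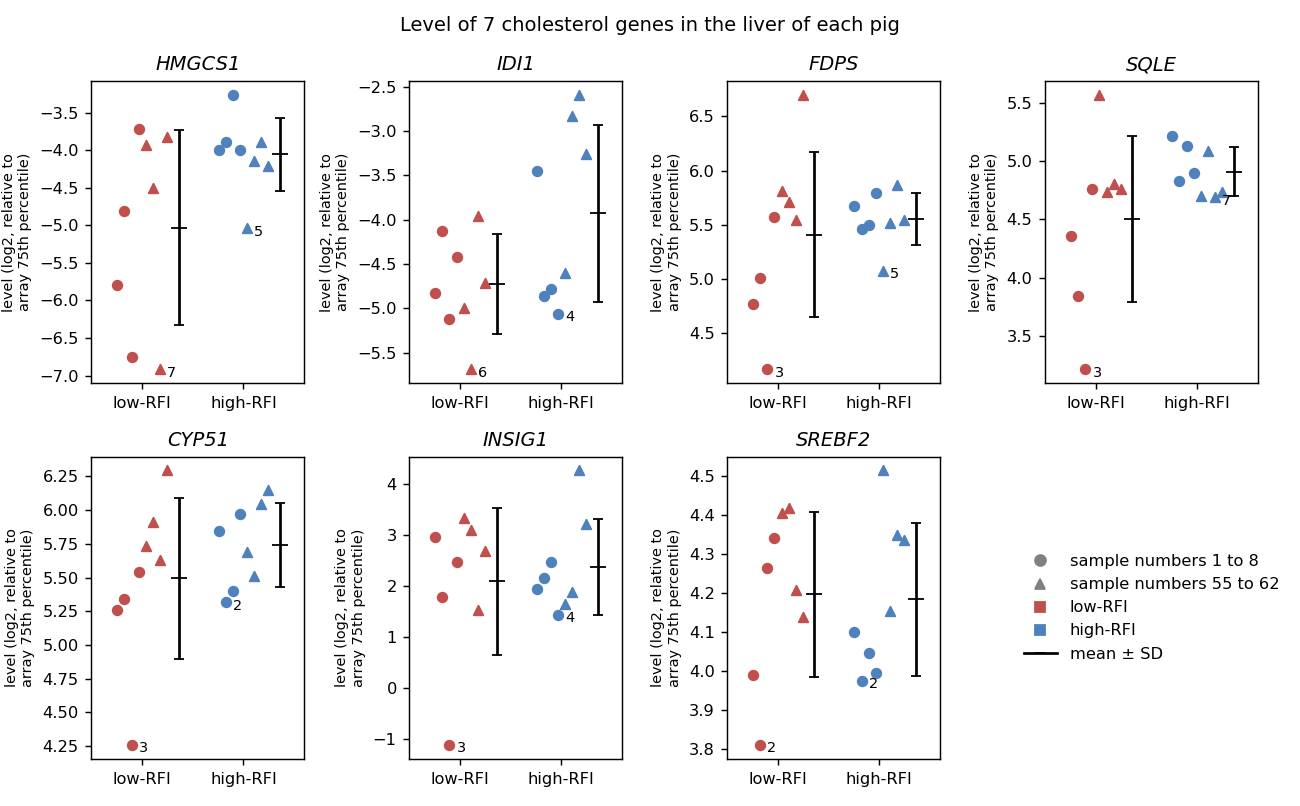
Level of each of the 7 cholesterol genes in each pig, on the log2 scale with 0 at the 75th percentile of its array, with low-RFI pigs on the left and high-RFI pigs on the right of every panel. Circles are sample numbers 1 to 8 and triangles 55 to 62, bars give the mean ± SD (n = 8 per line), and the lowest pig of each line carries its number. Low-RFI pig 3 is lowest for FDPS, SQLE, CYP51 and INSIG1.

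The SD between pigs was larger in the low-RFI than in the high-RFI line for 6 of the 7 genes. FDPS had an SD of 0.76 in low-RFI and 0.24 in high-RFI pigs, a ratio of 3.15 that 0.761% of tested probes reached or passed. SQLE had 0.71 in low-RFI and 0.21 in high-RFI pigs (ratio 3.42, reached by 0.542% of probes), and for CYP51 0.60 and 0.31 in low-RFI and high-RFI pigs (1.93, reached by 6.28%). The median ratio of all tested probes was 0.95. Low-RFI pig 3 carried part of this: without it the ratio was 2.56 for FDPS, 2.51 for SQLE and 1.14 for CYP51, and it turned to 0.72 for INSIG1, against 1.53 with it, so that 5 of the 7 genes had the larger SD in the low-RFI line. INSIG1 probe A_72_P186291 had a ratio of 0.60 with all pigs. The SQLE probe outside the shared run, A_72_P705210, had a ratio of 1.76, reached by 8.88% of probes. Without low-RFI pig 3 the ratio of that probe was 1.10. SREBF2 had a ratio of 1.09 and IDI1 of 0.56. These ratios were set beside each other after the levels had been seen, and no test was made of them.

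Of the 21 places among the 3 lowest pigs of each gene, 14 went to low-RFI pigs 1, 2 and 3 and 7 to other pigs. Low-RFI pig 3 was among the 3 lowest of the 16 pigs for 6 of the 7 genes and the lowest of all for 4. Low-RFI pig 1 was among the 3 lowest for 5 genes and low-RFI pig 2 for 3. Low-RFI pig 4, of the same run of sample numbers, was among the 3 lowest for 0. Low-RFI pig 7 and high-RFI pigs 2 and 4 were among the 3 lowest for 2 genes each and low-RFI pig 6 for 1. The lowest HMGCS1 level was that of low-RFI pig 7 and the lowest IDI1 level that of low-RFI pig 6, both by dim probes.

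SQLE averaged 4.04 ± 0.67 in low-RFI and 5.02 ± 0.18 in high-RFI pigs of sample numbers 1 to 8, and 4.97 ± 0.40 in low-RFI and 4.80 ± 0.19 in high-RFI pigs of 55 to 62 (SD, n = 4 each). The SQLE change was thus −0.98 ± 0.30 (SE) in the first run of numbers and 0.17 ± 0.22 in the second. FDPS estimates also lay on both sides of 0, at −0.73 ± 0.27 and 0.44 ± 0.27. CYP51 gave −0.53 ± 0.29 and 0.04 ± 0.21, while IDI1 ran the other way, at −0.08 ± 0.36 and −1.52 ± 0.48. When the difference between the runs was itself fitted in limma, it was −1.15 ± 0.39 for SQLE (adjusted p 0.663) and −1.17 ± 0.40 for FDPS (adjusted p 0.670). It passed the threshold for 0 of the 7 genes and 0 of all 30099 probes (0%), and at an unadjusted p under 0.05 for 3 of the 7 (SQLE, FDPS and IDI1) beside 6.21% of probes. This fit was added after the data had been seen.

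**Figure D2:**
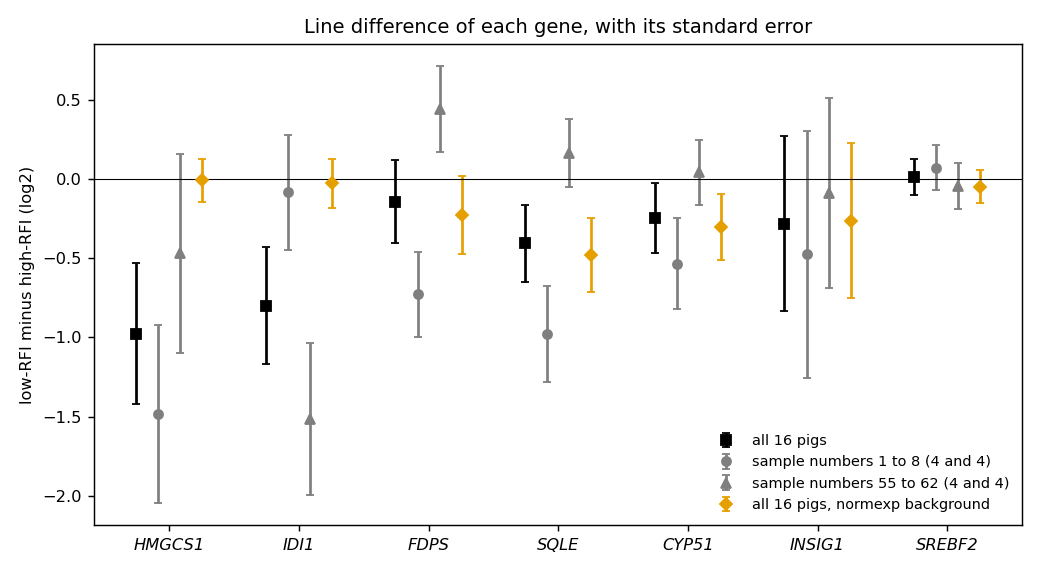
Change of each gene, low-RFI minus high-RFI on the log2 scale, with bars of 1 SE. Black squares use all 16 pigs, grey circles and triangles use the 4 low-RFI and 4 high-RFI pigs of sample numbers 1 to 8 and of 55 to 62, and orange diamonds use normexp background correction. HMGCS1 and IDI1, both dim, lie near 0 with normexp, whose offset shrinks log2 differences of dim probes. FDPS and SQLE lie on opposite sides of 0 in the 2 runs of sample numbers.

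Some of the levels covaried between pigs. Over the 21 pairs of the 7 genes, Pearson r was above 0 for 20, with a median of 0.29, beside 0.00487 over all pairs of represented genes, of which 22.0% had an r at or above the median of the 21. Among the 5 genes well above background on all 16 arrays (FDPS, SQLE, CYP51, INSIG1 and SREBF2) the median was 0.60. It was 0.36 without low-RFI pig 3, 0.71 within low-RFI and 0.26 within high-RFI pigs, and 0.64 in sample numbers 1 to 8 and 0.0480 in 55 to 62. After line and slide means had been removed, the median was 0.44 over the 7 genes and 0.60 over these 5. With the means of line and of the runs of sample numbers removed instead, it was 0.13 over the 7 and 0.51 over the 5. For 4 pairs the permutation p, adjusted over the 21 pairs, was under 0.05, and for 1 pair by Spearman's rho.

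FDPS and CYP51 formed that pair. Their r was 0.87 (p = 1e-05, the smallest 100000 permutations can give, adjusted 0.00021) and rho 0.84 (permutation p = 6e-05, adjusted 0.00126). Without the 2 pigs farthest from the median of FDPS, r was 0.67. Within low-RFI pigs r was 0.95 and within high-RFI pigs 0.48. It was 0.92 in sample numbers 1 to 8 and 0.68 in 55 to 62, and 0.86 after line and slide means had been removed. Among all represented genes, CYP51 held rank 3 by r with FDPS, and FDPS rank 3 by r with CYP51.

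The other 3 pairs passed by r and not by rho. CYP51 and INSIG1 had an r of 0.72 and a rho of 0.42 (permutation p adjusted 0.0396 and 0.299), and r fell to 0.35 without the 2 farthest pigs. SQLE and FDPS had an r of 0.70 and a rho of 0.46 (permutation p adjusted 0.0396 and 0.299). Without the 2 farthest pigs it was 0.30, and it was 0.76 within low-RFI pigs and 0.16 within high-RFI pigs. HMGCS1 and FDPS had an r of 0.64 (permutation p adjusted 0.0396) that was 0.67 without the 2 farthest pigs, and 0.45 without low-RFI pig 3.

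SQLE and CYP51 had an r of 0.65 and a rho of 0.22 (permutation p adjusted 0.0520 and 0.652). Without the 2 pigs farthest from the SQLE median r was 0.01, so the relation rested on those pigs. It was 0.79 within low-RFI pigs and −0.40 within high-RFI pigs. SREBF2 had r between −0.04 and 0.21 with the other 6 genes, and IDI1 between 0.02 and 0.29. These members did not pass the test with any other.

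**Figure D3:**
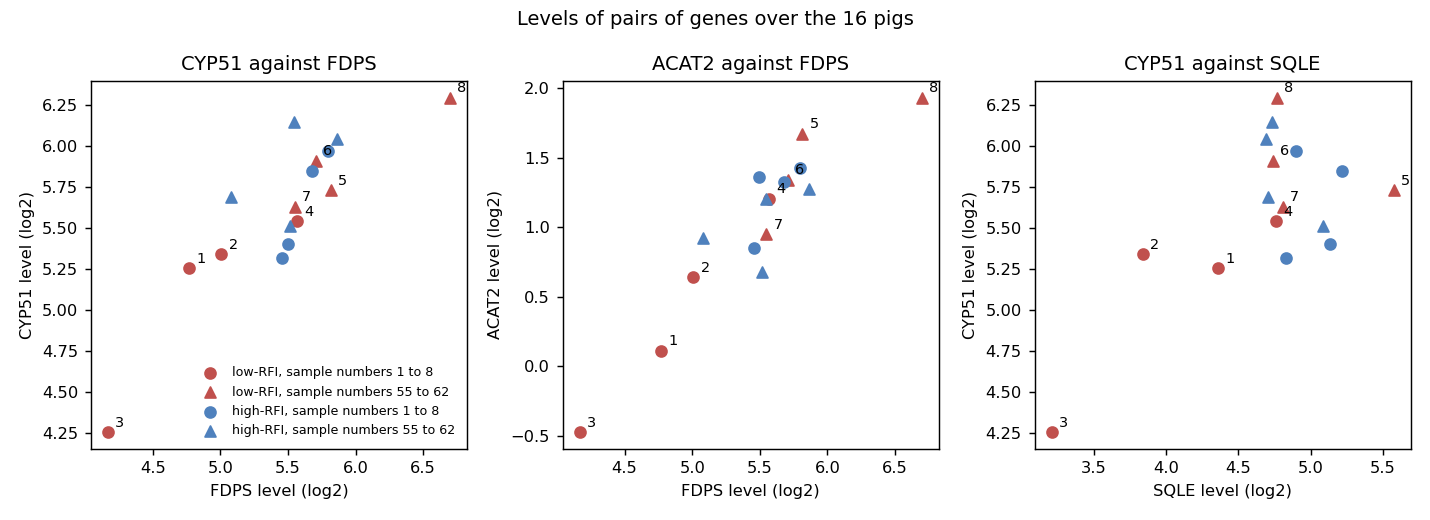
Levels of CYP51 against FDPS, of ACAT2, the thiolase that supplies the pathway, against FDPS and of CYP51 against SQLE, 1 point per pig on log2 axes; red is low-RFI, blue high-RFI, circles are sample numbers 1 to 8 and triangles 55 to 62, and numbers name the low-RFI pigs. FDPS and CYP51 rise together over all pigs (r = 0.87), more closely within the low-RFI than within the high-RFI line. SQLE and CYP51 (r = 0.65) do so mostly through low-RFI pigs 2 and 3, the farthest from the SQLE median.

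Probes of 1 gene followed each other. Their r over the 16 pigs was 0.97 to 0.99 for the 3 FDPS probes, 0.82 to 0.95 for the 4 CYP51 probes, and 0.85 to 0.99 for the SQLE probes, of which the overlapping ones gave the highest. INSIG1 A_72_P308228 and A_72_P442208 had an r of 0.86, and A_72_P186291 had 0.66 and 0.46 with them.

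The rest of the pathway was read from lists of other synthesis genes, of uptake genes and SREBP regulators, of sterol export and storage, and of fatty acid synthesis. None of their 32 reported genes, each taken by its representing probe, differed between the lines at an adjusted p under 0.05. Of 6 other synthesis genes, 4 estimates were below 0, with a median of −0.10. ACAT2 averaged 0.92 ± 0.80 in low-RFI and 1.13 ± 0.27 in high-RFI pigs (SD, n = 8 each), a change of −0.21 ± 0.28 (SE). NSDHL, which acts after CYP51, changed by −0.22 ± 0.23 (SE), MVK, mevalonate kinase, by −0.14 ± 0.20, HSD17B7 by 0.25 ± 0.18 and PMVK, which phosphorylates phosphomevalonate, by 0.18 ± 0.15.

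Of 8 uptake and regulator genes, 5 estimates were below 0, and 1, SORT1, had an unadjusted p under 0.05. SORT1, which handles lipoprotein traffic, changed by −0.29 ± 0.13 (SE), with an adjusted p of 0.893, and by −0.55 ± 0.31 by its other probe. The other NPC2 probe gave 0.37 ± 0.14 (SE), with a limma p of 0.0167 unadjusted and 0.751 adjusted. The other SREBF1 probe gave 0.10 ± 0.20 (SE). The values that follow are those of the representing probes. SREBF1, the lipogenic relative of SREBF2, changed by −0.14 ± 0.14 (SE), NPC1, which moves cholesterol out of lysosomes, by −0.16 ± 0.24, its partner NPC2, which hands it cholesterol in lysosomes, by 0.19 ± 0.11, SCAP, the escort of the SREBPs, by 0.14 ± 0.14, and INSIG2 by 0.18 ± 0.23.

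Of 7 export and storage genes, 3 estimates were below 0 and the median was 0.09. CYP7A1, the rate-limiting enzyme of bile acid synthesis, averaged 2.999 ± 0.81 in low-RFI and 2.91 ± 0.44 in high-RFI pigs (SD, n = 8 each). Its change was 0.09 ± 0.30 (SE), and −0.33 ± 0.40 by its other probe. APOA1, the main protein of high-density lipoprotein, changed by 0.17 ± 0.09 (SE), LCAT, which esterifies cholesterol there, by 0.17 ± 0.19, and MYLIP by 0.38 ± 0.27. The sterol exporters ABCA1 and ABCG5 changed by −0.01 ± 0.08 and −0.06 ± 0.19, and NR1H3, a sterol-sensing nuclear receptor, by −0.02 ± 0.08.

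Of 11 fatty acid synthesis genes, 10 estimates were below 0, with a median of −0.20. PNPLA3 ranged over 0.31, 4.39 and 6.06 in low-RFI pigs, against 3.77, 4.85 and 5.79 in high-RFI pigs, and changed by −1.15 ± 0.78 (SE). ME1 changed by −0.55 ± 0.41 (SE), SCD by −0.47 ± 0.49 and ELOVL5 by 0.00165 ± 0.127.

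The 7 cholesterol genes were correlated with each of these 32 genes, 224 relations in all. For 33 the permutation p adjusted over the 224 was under 0.05, 32 of them with r above 0, and 17 also passed by rho. The share of all represented genes that would pass with the 7 is not given here. These counts therefore cannot show whether the listed genes follow the 7 more often than other genes do. CYP51 had 11, FDPS 10, SQLE 5, HMGCS1 and INSIG1 3 each, SREBF2 1 and IDI1 0. By rho, CYP51 kept 8, FDPS 7 and SQLE 2, and the other genes 0.

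FDPS had an r with ACAT2 of 0.93 (rho 0.86, permutation p adjusted 0.00112 and 0.00448). Without the 2 farthest pigs r was 0.86, and within the lines it came to 0.97 for low-RFI and 0.58 for high-RFI pigs. In sample numbers 55 to 62 alone it was 0.82. With MSMO1, an oxidase of methyl sterols that acts after CYP51, FDPS had an r of 0.83 (rho 0.75, permutation p adjusted 0.00224 and 0.0252), with 0.96 within low-RFI pigs and 0.21 within high-RFI pigs, and 0.61 without the 2 farthest pigs.

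Of the 11 fatty acid synthesis genes, 6 passed by r and 5 by rho with CYP51, whose r with the 11 ranged from 0.20 for ELOVL5 to 0.87 for FASN. With FASN, the fatty acid synthase, r was 0.87 (rho 0.84, permutation p adjusted 0.00112 and 0.00538), with 0.88 in low-RFI and 0.85 in high-RFI pigs. With ACSS2, which makes acetyl-CoA from acetate, it was 0.81 (rho 0.87, permutation p adjusted 0.00179 and 0.00448), and 0.84 in low-RFI and 0.78 in high-RFI pigs. FDPS had an r of 0.85 with PNPLA3 (rho 0.73, permutation p adjusted 0.00149 and 0.0310), with 0.87 in low-RFI and 0.85 in high-RFI pigs.

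SQLE passed by both r and rho with NPC1, at 0.73 (rho 0.71, permutation p adjusted 0.0154 and 0.0366), and with ACLY, ATP citrate lyase, at 0.72 (rho 0.78, permutation p adjusted 0.0187 and 0.0221). Without the 2 farthest pigs these were 0.57 and 0.53. HMGCS1 passed by r with ACAT2, at 0.71 (rho 0.61, permutation p adjusted 0.0364 and 0.115), and without the 2 farthest pigs it was 0.72. INSIG1 passed by r with ACACA, acetyl-CoA carboxylase, at 0.73 (rho 0.56, permutation p adjusted 0.0140 and 0.163). SREBF2 passed with MVK at 0.66 (rho 0.63, permutation p adjusted 0.0394 and 0.0899), with 0.04 in sample numbers 1 to 8 and 0.52 in 55 to 62. CYP7A1 passed with none of the 7 genes.

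**Figure D4:**
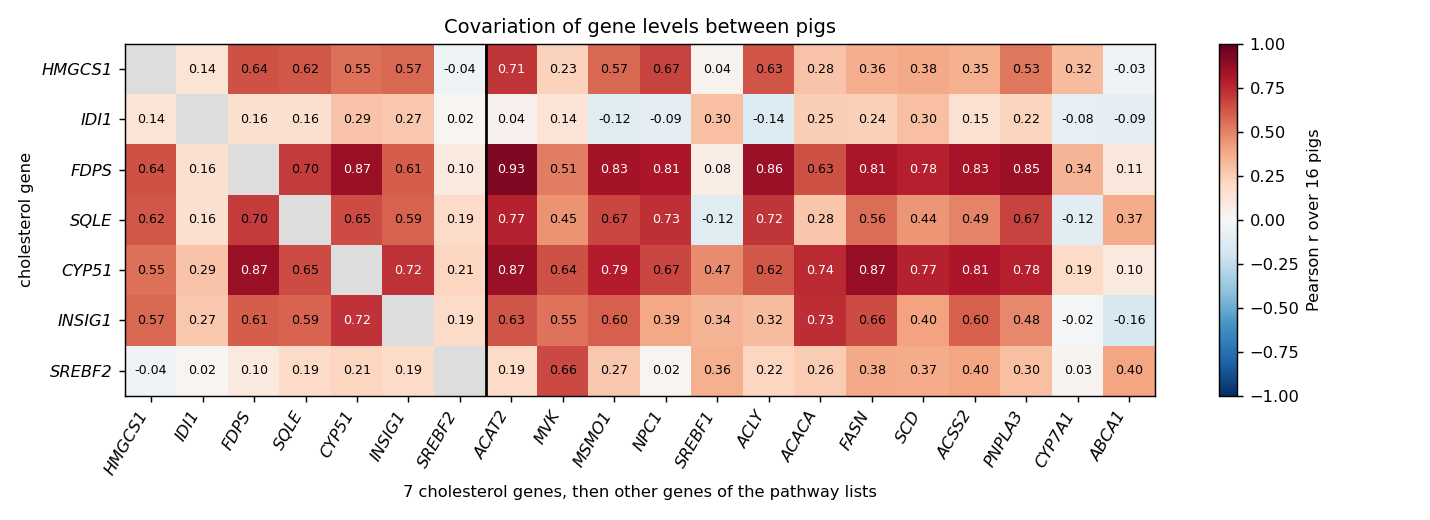
Pearson r over the 16 pigs between the 7 cholesterol genes (rows) and, in columns, the same genes and then 13 genes of the other lists; red is positive and blue negative. FDPS and CYP51 have r of 0.77 to 0.93 with ACAT2, MSMO1, FASN, SCD, ACSS2 and PNPLA3, whereas the rows of IDI1 and SREBF2 are pale apart from MVK for SREBF2.

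The genes most like the 7 were named by their r with the mean of the 7 standardised levels after line means had been removed, over 16 pigs and 4054 other genes. The 8 highest of these were ACAT2 (r = 0.86), SLPI (0.84), BMP4 (0.84), FASN (0.81), TTC7B (0.79), RGS5 (0.79), ACSS2 (0.78) and ZNF389 (0.77). The 4 lowest were CLC-2 (−0.80), EPO (−0.78), STC1 (−0.77) and SF3B1 (−0.77). Low-RFI pig 3 was the lowest low-RFI pig for each of the 8, and the highest for CLC-2, EPO and STC1. Before line means were removed, its mean of the 7 standardised levels was −1.91, the next lowest being −0.76 in low-RFI pig 2. The ranking without low-RFI pig 3 is not given here, so it may lean on that pig. None of these 12 genes differed between the lines at an adjusted p under 0.05. The mean of the 5 genes well above background everywhere had an r of −0.06 with the number of probes well above background and −0.23 with the scanner's noise measure.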

How the data were processed

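Cy3-labelled RNA was hybridised to 1-colour Agilent arrays. Per the file headers, the scanner software was Feature Extraction 10.7.3.1 from Agilent, under protocol GE1_107_Sep09, and the processed signal is a linear intensity, background-subtracted. The authors' deposited table holds log2 values of 27938 spots, equal to each array's log2 processed signal up to a shift (largest difference 4.48e-08). The submitters' processing notes name R 2.10.0. Spots marked as outliers were set to missing, each array's 75th percentile was subtracted on the log2 scale, and spots of a probe were averaged. Of 43603 probes, 30099 were tested with limma 3.58.1 in R 4.3.3 (eBayes, Benjamini-Hochberg). The labels do not say more of how pigs relate, so p-values judge differences against the spread between these pigs, treated as independent. Correlations used 100000 two-sided permutations (numpy 2.4.6) that shuffled all 16 pigs freely, without regard to their numbers.

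The members and lists were chosen with earlier results of these data known. Named genes were all members, per list the up to 3 genes of smallest p on each side of 0, CYP7A1, and the genes most and least like the members. FDFT1 was not analysed here, and some listed genes are not reported here; counts over lists, relations and likeness leave them out. Planned pairs numbered 28, and 21 could be formed. No genome was used, so no positions are given. Alternatives were other background correction, scaling, filters, blocks, covariates and leave-outs. Matching INSIG1 and IDI1 by full name, and the choice of the scanner's noise measure over an own estimate, were made after the data had been seen. The fit was also run on simulated data with independent normal noise in each probe and pig. Those data had the same SD in both lines and no covariation between genes or same-numbered pigs. They therefore do not test the fit under such features.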

Additional observations from a re-analysis of the deposited data

Results flagged for a closer look

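In 106 groups of 8 pigs, 6 held a pig whose gap to its nearest neighbour passed Dixon's critical share of the range of its line, where chance gives about 1 group in 20. INSIG1 (A_72_P308228) was −1.12 in low-RFI pig 3, the next lowest low-RFI pig being at 1.54. BMP4 was −5.71 in the same pig. PMVK was 4.04 in low-RFI pig 8 and 2.53 in high-RFI pig 6, and SCAP was 3.33 in high-RFI pig 3. The array of high-RFI pig 3 also had the highest scanner noise measure, at 17.8%.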

How the results depend on the processing

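The line comparison was repeated under 41 other settings: 17 planned, 16 that each left out 1 pig, 4 slides alone and 4 added after the data had been seen. The number of members called was 0 in the main analysis and in each setting with a test, and the lowest adjusted p of a member in limma was 0.558 (IDI1, sample numbers 55 to 62 alone). With the replicate block the changes were the same and the adjusted p was 0.629 for IDI1 and 0.659 for HMGCS1; the block changed no call of a member, and 4 probes were called in all, against 3 without it. Same-numbered pigs of the lines had deviations with r of 0.0475 to 0.40, above 0 for all 8 numbers and above 0.1 for 6 of them. Since r was not above 0.1 for every number and the labels name no shared litter or batch, the pigs were not taken as pairs. Yet 11 of 16 pigs correlated best with their own number, a hint from the data that they may be paired. The permutation p-values of the correlations between genes treat the 16 pigs as independent and do not allow for such pairing. The number of estimates below 0 was 4 to 7 and the median change −0.46 to −0.07 without 1 pig; on slide 3 alone the median was −0.92. Without low-RFI pig 3, FDPS was 0.0351 (leave-outs −0.33 to 0.0351) and INSIG1 0.18 (−0.46 to 0.18). In sample numbers 55 to 62 alone CYP51 was 0.0431, FDPS 0.44, SQLE 0.17 and SREBF2 −0.0454. On slide 2 alone FDPS was 0.0243, INSIG1 1.25, SQLE 0.20 and SREBF2 −0.0463; on slide 4 CYP51 was 0.14 and FDPS 0.61; on slide 1 SREBF2 was −0.12. SREBF2 was also below 0 with normexp (−0.0485), quantile normalisation (−0.0226), cyclic loess (−0.0124), array position (−0.0518), the scanner's noise (−0.0329) or the own noise measure (−9.03e-05) as covariate, and without the arrays marked for evaluation (−0.0892), and −0.0183 to 0.0686 without 1 pig. The planned noise covariate did not name its measure; both were fitted, and neither called a member. The causes were not tested, and the array number limits the precision.

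The median r of member pairs was 0.20 to 0.39 without 1 pig, 0.60 over the 5 genes above background on all arrays (0.36 without low-RFI pig 3), 0.59 without IDI1 and INSIG1, and 0.0577 in sample numbers 55 to 62. The number of pairs called, 4, was 1 by Spearman's rho and 1 to 8 without 1 pig. It was 1 without low-RFI pig 2, 3, 4, 5 or 6 or high-RFI pig 5, 7 or 8, and 7 or 8 without low-RFI pig 7 or 8 or high-RFI pig 4. FDPS and CYP51 were called in each of these 16, with an adjusted permutation p of 0.00021 to 0.00693.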
